A study of Mus musculus with 24 samples.

Results

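The regions described here are stretches of the mouse autosomes that carried a peak of acetylated histone H3 lysine 27 (H3K27ac) in the livers of CAST mice and none in the livers of B6 mice. They were chosen by the peak calls themselves. Peaks of 4 lists that shared 1 bp or more were merged into 117616 union regions, and a region was a member when both CAST lists called it and neither B6 list did. Of 7265 such regions, 579 were set aside because they lay wholly between neighbouring B6 peaks whose running numbers were not consecutive in both B6 lists, so that a numbered B6 peak is missing from the stretch. The remaining 6686 members were 5.68% of all autosomal union regions and 10.9% of the 61432 regions that both CAST lists called. These counts follow from the rule and are given as a description.

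H3K27ac was measured by ChIP-seq in 20 livers of 8-week-old mice, 5 in each of 4 groups: B6 (C57BL/6J) males, B6 females, CAST (CAST/EiJ) males and CAST females. B6 is a classical laboratory strain, and CAST is an inbred strain derived from wild mice of another subspecies. The reads of a group's livers were pooled before peaks were called against the group's input DNA, so each group is 1 list. The lists therefore hold no spread between replicates, no test was run on them, and every interval below covers counting error only. The male lists held 79862 (B6) and 90228 (CAST) peaks, the female lists 82181 and 84645, and the read depth behind each pool is not given in these files. The strain entry in the sample labels contradicted the sample titles in the B6 female and the CAST male groups, and groups were taken from the titles. Missing peak numbers, 599 in males and 579 in females, occurred in both lists titled B6 and in neither list titled CAST.

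Acetylation of lysine 27 on histone H3 marks nucleosomes at active promoters and enhancers, the latter often far from the gene they act on. In liver, enhancers are bound by hepatocyte factors such as HNF4A, FOXA and CEBP, and many genes of drug, steroid and lipid metabolism differ between male and female mice because growth hormone is secreted in sex-specific patterns and acts through STAT5. Inbred strains differ in the sequence of such elements and in the make-up of clustered gene families.

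The sequences that follow are 300-base windows centred on the CAST male summit of 6 members that recur below: 3 of the largest cluster of members, around the sulfotransferase gene Sult3a1, 1 each of the clusters near Cfhr2 and Ppp6c, and the member nearest to Tat, a hepatocyte enzyme of tyrosine breakdown. They were read from the plus strand of NCBIM37 (mm9), which is the B6 genome, so they are the B6 version of the sequence. The first 5 were picked because they hold a match to a short motif of a liver factor, and the match is in capitals.
Sult3a1, chr10:33575023-33575322: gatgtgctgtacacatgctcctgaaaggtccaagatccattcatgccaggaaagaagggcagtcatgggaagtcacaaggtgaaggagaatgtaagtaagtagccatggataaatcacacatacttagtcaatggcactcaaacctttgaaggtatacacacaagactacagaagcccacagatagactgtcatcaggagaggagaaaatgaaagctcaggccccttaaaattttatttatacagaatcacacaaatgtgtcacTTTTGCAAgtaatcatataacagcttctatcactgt
Gm10327, chr10:33548930-33549229: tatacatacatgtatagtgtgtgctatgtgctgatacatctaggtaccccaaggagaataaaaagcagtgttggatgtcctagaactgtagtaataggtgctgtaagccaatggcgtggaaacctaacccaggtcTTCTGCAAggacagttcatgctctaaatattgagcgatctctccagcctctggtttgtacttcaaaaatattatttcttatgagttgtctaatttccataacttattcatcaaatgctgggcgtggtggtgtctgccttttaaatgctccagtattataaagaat
Gm4794, chr10:33496983-33497282: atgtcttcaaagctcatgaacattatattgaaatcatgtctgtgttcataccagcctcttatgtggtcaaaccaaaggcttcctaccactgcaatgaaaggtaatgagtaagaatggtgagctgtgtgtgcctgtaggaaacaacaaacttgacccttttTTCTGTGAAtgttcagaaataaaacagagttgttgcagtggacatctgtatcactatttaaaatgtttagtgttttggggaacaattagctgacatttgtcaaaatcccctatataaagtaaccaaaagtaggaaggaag
Cfhr2, chr1:141934565-141934864: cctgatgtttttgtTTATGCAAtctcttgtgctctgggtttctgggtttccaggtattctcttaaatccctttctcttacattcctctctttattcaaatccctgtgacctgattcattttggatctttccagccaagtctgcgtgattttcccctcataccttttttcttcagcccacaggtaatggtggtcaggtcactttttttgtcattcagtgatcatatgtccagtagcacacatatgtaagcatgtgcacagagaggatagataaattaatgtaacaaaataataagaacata
Ppp6c, chr2:39094261-39094560: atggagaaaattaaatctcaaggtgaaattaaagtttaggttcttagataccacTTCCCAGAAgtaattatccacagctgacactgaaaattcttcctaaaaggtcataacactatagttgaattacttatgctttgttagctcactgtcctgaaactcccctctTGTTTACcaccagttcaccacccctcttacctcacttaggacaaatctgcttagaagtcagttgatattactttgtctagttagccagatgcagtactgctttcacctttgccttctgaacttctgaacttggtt
Tat, chr8:112535327-112535626: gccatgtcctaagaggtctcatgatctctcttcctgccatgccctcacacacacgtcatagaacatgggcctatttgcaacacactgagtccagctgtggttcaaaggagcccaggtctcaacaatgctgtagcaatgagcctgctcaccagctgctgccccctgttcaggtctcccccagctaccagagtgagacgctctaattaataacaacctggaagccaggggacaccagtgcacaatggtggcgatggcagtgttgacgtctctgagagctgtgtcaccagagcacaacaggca
The windows near Sult3a1, Gm10327 and Cfhr2 hold the CEBP letters TTNNGCAA on one strand or the other. The window near Gm4794 holds the STAT5 letters TTCNNNGAA, and that near Ppp6c holds them beside the FOXA letters TGTTTAC. The Tat window holds none of the motifs searched.

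Of those motifs, the CEBP letters were more frequent in members than in CAST regions shared with B6, with intervals that did not overlap. The CEBP letters were in 12.5% of the 6686 member windows (95% Wilson interval 11.7 to 13.3), in 10.5% (10.2 to 10.7) of the 54167 CAST regions that a B6 list also called, and in 11.9% (11 to 12.8) of the 4934 regions called in both B6 lists and in neither CAST list. The STAT5 letters were in 8.91%, 8.40% and 9.40% of these windows in the same order, and the FOXA letters in 4.04%, 4.03% and 5.17%. The HNF4A letters CAAAGTCCA were in 0.703% of member windows and 0.539% of the CAST regions shared with B6. The HNF1 letters GTTAATNAT, the last of the motifs searched, were in 0.733% and 0.617%. For STAT5, FOXA, HNF4A and HNF1, the intervals of members and of the shared CAST regions overlapped. The interval of FOXA in members did not overlap that in B6-only regions, where the letters were more frequent. Both strands were searched, and matches to different motifs may overlap.

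Members were narrow and of low score. Their median width was 552 bp, against 1361 bp for the 47477 regions called in all 4 lists and 587 bp for the B6-only regions. Each peak was given its percentile of the MACS2 score within its own list, with 100 the strongest, and each region was ranked by the lower of its CAST percentiles. The median of this rank was 21.4 in members and 65.1 in regions called in all 4 lists, and it was 21.5 in B6-only regions ranked in the same way within the B6 lists. Only 852 members (12.7%) stood in the upper part, above the median peak, of both CAST lists, and 39 (0.583%) stood above the 80th percentile of both. Median fold enrichment over input was 2.29 in CAST males against 2.30 in CAST females. Along the ranking, members made up 32.9% of the regions of both CAST lists below percentile 20 and 0.263% of those above percentile 80. The rule rests on the same calls, so this is a description.

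Most members lay close to acetylated chromatin of B6 livers. The median distance from a member to the nearest B6 peak was 3470 bp, 28% had a B6 peak at most 1 kb away and 58.6% at most 5 kb away, while 244 members (3.65%) lay more than 100 kb from any. The B6-only regions were similarly close to CAST peaks, with a median of 2932 bp. At the limit of the rule, 91 members lay at most 100 bp from a B6 peak, with median folds of 2.11 in CAST males and 2.12 in CAST females. Another 85 CAST regions overlapped a B6 peak by at most 100 bp and so were not members, with median folds of 2.16 and 2.19.

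Promoters were scarce among members. A member was called a promoter member when it lay at most 2.5 kb from the start of a protein-coding transcript. This held for 565 of 6686 members, or 8.45% (95% Wilson interval 7.81 to 9.14), against 17.8% of all autosomal union regions. The share was 31.1% (30.7 to 31.5) in regions called in all 4 lists and 8.65% (7.90 to 9.47) in B6-only regions, so members resembled the reverse class and not the regions both strains called. On each of the 19 autosomes the share was lower in members than in regions called in all 4 lists, and on 10 of 19 it was lower than in B6-only regions. Of the members, 51.8% had their midpoint in an intron of a coding gene, 40.8% between genes, 4.91% in a coding gene's exon and 2.44% in a non-coding gene. The median distance to a coding start was 23.5 kb in members and 11.5 kb in regions called in all 4 lists.

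The low promoter share was present at every level of score. Between percentiles 20 and 40, 8.56% of members (7.41 to 9.88) and 11.3% of CAST regions also called in B6 (10.7 to 12) were at promoters. Between 60 and 80, the shares were 10.5% (7.61 to 14.3) of 324 members and 20.1% (19.5 to 20.8) of 13157 shared regions. Above 80, they were 15.4% (7.25 to 29.7) of 39 members and 65.9% (65.1 to 66.7) of 14334 shared regions. The gap between members and shared regions was thus widest among the strongest peaks, where shared regions were mostly promoters. The 579 regions set aside were of another kind, with 69.6% (65.7 to 73.2) at promoters and a median rank of 91.5.

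**Figure D1:**
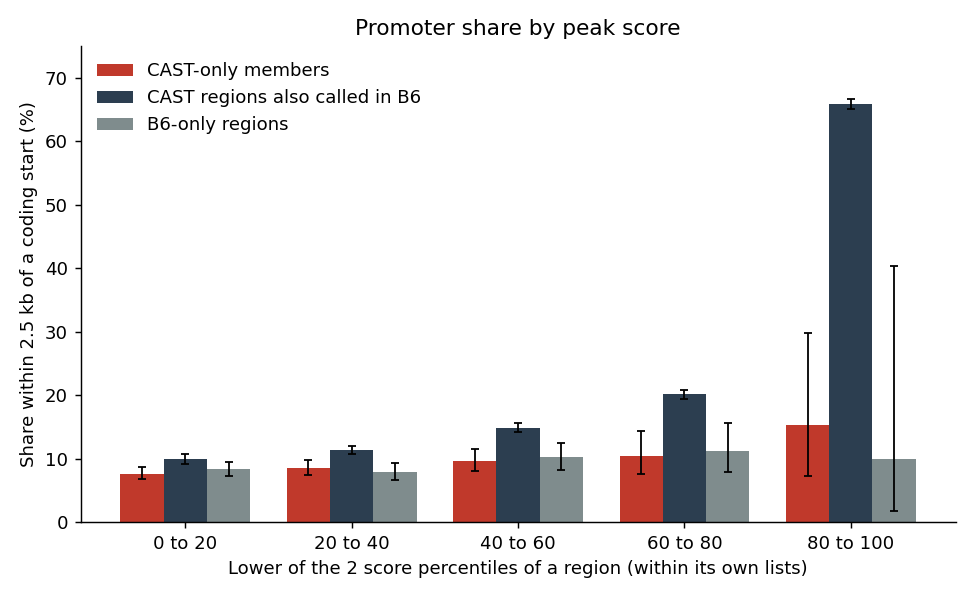
Share of regions within 2.5 kb of a coding start (bars, %, with 95% Wilson intervals) in 5 bands of score percentile, for members, for CAST regions also called in a B6 list and for B6-only regions. Members and B6-only regions stay between 7.65% and 15.4% in every band, while the shared CAST regions reach 65.9% in the highest band.

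Promoter members belonged to 526 genes, and only 105 of the 565 covered the start itself. For 393 of them, a B6 list had a peak within 2.5 kb of some start of the same gene, so the gene carried a promoter peak in B6 as well, at the same or another start. The remaining 172 promoter members, at 155 genes, had no B6 peak at any coding start of the gene. Of the 84 promoter members above the median peak in both CAST lists, 34 were of this second kind.

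Among the 10 highest-ranked promoter members, several sat in sequence that occurs more than once in the genome, measured as the share of 50-base windows (the read length) found at a single place in NCBIM37. The strongest covered the start of the predicted gene Gm10222 (chr1:24618456-24621864), with percentiles of 99.5 and 99.6 and folds of 5.60 in CAST males and 4.78 in CAST females. Only 2.74% of its windows were unique, and 97.3% occurred also in the mitochondrial genome. Each B6 list had 5 peaks on the mitochondrial genome and each CAST list had 0. Low uniqueness was also seen at Fgfr1op (15.9%), which encodes a centrosomal protein, at the predicted gene Gm14399 (29.1%) and at 3110057O12Rik (65.7%).

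Serpina1b encodes a form of alpha-1-antitrypsin, the main protease inhibitor that hepatocytes secrete, and is one of several near-identical copies. Its member lay 195 bp from the start (chr12:104975540-104976173) and had folds of 6.76 in CAST males and 4.82 in CAST females, with 71.5% of windows unique and the nearest B6 peak 25.2 kb away. Mthfs, an enzyme of folate metabolism, had a member 489 bp from its start with folds of 7.35 and 9.93, where 73.9% of windows were unique. What part repeated sequence has in these calls was not tested.

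In the other 4, 100% of windows were unique. Tert, the reverse transcriptase of telomerase, had a member of 1885 bp in an intron 912 bp from a start (chr13:73771167-73773051), with folds of 4.57 in CAST males and 4.78 in CAST females and the nearest B6 peak 6.04 kb away. Banp, a DNA-binding protein of the nuclear matrix, had a member 153 bp from a start with folds of 3.24 and 3.22. Fyb, an adaptor protein of T cells and other blood cells, had a member 1.67 kb from a start with folds of 3.78 and 3.82. Gm410, a predicted gene, had one 1.54 kb away with folds of 4.65 and 5.62. The members at Banp, Fyb and Gm410 each had a B6 peak at most 1 kb away, at 971, 925 and 998 bp.

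Outside promoters, the highest-ranked members were often remote from coding starts and from B6 peaks. The top member lay in an intron of Chl1, a neural adhesion molecule (chr6:103599053-103599280), with folds of 33.8 in CAST males and 36.3 in CAST females, and 65.9% of its 228 bp was unique. The next lay in an intron of Myo3a, an unconventional myosin (chr2:22443980-22445371), with folds of 10.0 and 9.11, and 35.7% of its windows occurred in the mitochondrial genome. Both lie in a number gap of the B6 female list alone. Of the 10, 6 had under 90% unique windows: besides those near Chl1 and Myo3a, the members nearest to Olfr161 (37.3%), Pcdh9 (14.9%), Cartpt (89.4%) and Ccnh (82.2%). For the one nearest to Ccnh, 9.37% of windows occurred in the mitochondrial genome.

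The other 4 distal members had 97.6% or more unique windows. Windows were matched exactly, so a diverged copy of repeated or mitochondrial sequence counts as unique. The member nearest to Tyrp1, an enzyme of melanin synthesis, lay 829 kb from that start (chr4:79649121-79651011) and had folds of 8.94 and 9.15, and 2.39% of its windows occurred in the mitochondrial genome. The member nearest to Vpreb2, which encodes part of the pre-B cell receptor, lay 19.4 kb away (chr16:17999947-18001030) with folds of 9.81 and 9.31. Those nearest to Serpinb6e, an intracellular protease inhibitor, and to Sel1l, a component of the machinery that clears misfolded proteins from the endoplasmic reticulum, had folds of 8.09 and 8.02, and of 7.59 and 6.22. Their nearest B6 peaks were between 51.6 and 868 kb away.

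Repeated sequence was concentrated at the top of the ranking. Over all members, 87 (1.30%) had under 90% unique windows, against 0.729% of shared CAST regions and 1.28% of B6-only regions. Below percentile 20 the shares were 0.535% in members, 0.541% in shared regions and 0.818% in B6-only regions. Between 60 and 80 they were 4.32%, 0.821% and 3.08%, so the B6-only regions rose as well. Above percentile 80 they were 30.8% (12 of 39 members) and 0.726% of shared regions, with only 10 B6-only regions in that band. Leaving out all 87 left 6599 members and a promoter share of 8.26%.

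**Figure D2:**
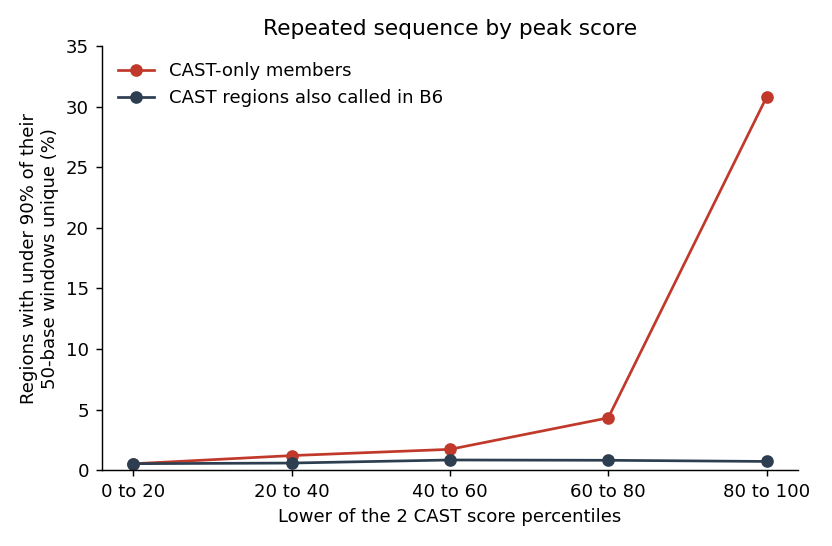
Share of regions with under 90% of their 50-base windows found once in the genome (%), in 5 bands of the lower CAST score percentile, for members and for CAST regions also called in a B6 list. The lines coincide in the lowest band at 0.535% and 0.541% and part to 30.8% and 0.726% in the highest.

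Some members occurred in groups along the chromosomes. A cluster was defined as 3 or more members, each at most 50 kb from the next, and 510 clusters held 1921 members, or 28.7% (27.7 to 29.8). In the smaller B6-only class, 17% (16 to 18.1) of 4934 regions were in 242 clusters, and among the 47477 regions called in all 4 lists 90.4% (90.1 to 90.7) were. A class with fewer regions will have fewer within a fixed distance, so these shares are not comparable between classes of unequal size. Most clusters were small, with 306 of 3 members and 37 of 6 or more. Their median span was 45.2 kb, and in the median cluster 40% of all union regions in the span were members. In 71 clusters no B6 peak of either sex lay in the span. When peaks up to 500 bp apart were merged first, 18.4% of members were in clusters.

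The largest cluster held 17 members within 155 kb of chromosome 10 (chr10:33435219-33590663), which contains 3 coding genes, Gm4794, Gm10327 and Sult3a1. Sult3a1 encodes a cytosolic sulfotransferase that is known in mouse liver as a female-predominant enzyme. None of the 17 lay at a promoter, and merging peaks up to 500 bp apart gave 10 members in the span. The span held 40 union regions, and the CAST female list called all 40. The CAST male list called 28, the B6 male list 10 and the B6 female list 8. The 11 regions called in 1 CAST list and no B6 list were all called in the CAST female list.

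CAST females also ranked these members higher. The percentile was higher in the CAST female than in the CAST male list in 16 of 17 members, with medians of 65.6 in females and 47.9 in males. The fold was higher in the CAST female list in 12 of 17, and the member at chr10:33506766-33506994 had folds of 2.01 in females and 2.41 in males. The member 8.28 kb upstream of the Sult3a1 start (chr10:33574955-33575461) stood at percentile 83.4 in the CAST female list and 55.4 in the CAST male list, with folds of 2.92 and 2.55. The member at chr10:33547877-33548548, nearest to Gm10327, stood at 80.7 and 40.5, with folds of 5.13 and 2.77. The pair at the lowest coordinates, 65.7 and 48.5 kb from the Gm4794 start, stood at 59.3 and 55.5 in CAST females and at 13.3 and 2.14 in CAST males. The exception, 14.9 kb from the Gm4794 start, stood at 26.7 in females and 41.8 in males.

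The regions of the span that all 4 lists called are not members, but the span was picked for its many members. Values at these regions are thus not independent of that choice. All 6 had a higher percentile in CAST than in B6 within each sex. By fold enrichment, CAST was higher in all 6 in males but in only 4 of 6 in females, and the region at chr10:33508552-33510104 had a fold of 5.26 in the B6 female list against 3.58 in the CAST female list. Their medians were 96.5 in CAST females, 85.0 in CAST males, 54.1 in B6 females and 55.9 in B6 males. All 17 members had at least 97.04% unique windows. A further 8 members, all higher in the CAST female list by percentile and by fold, lay near the neighbouring gene Clvs2, the last of them 52.2 kb before the cluster, and no region called in all 4 lists had Clvs2 as its nearest gene.

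**Figure D3:**
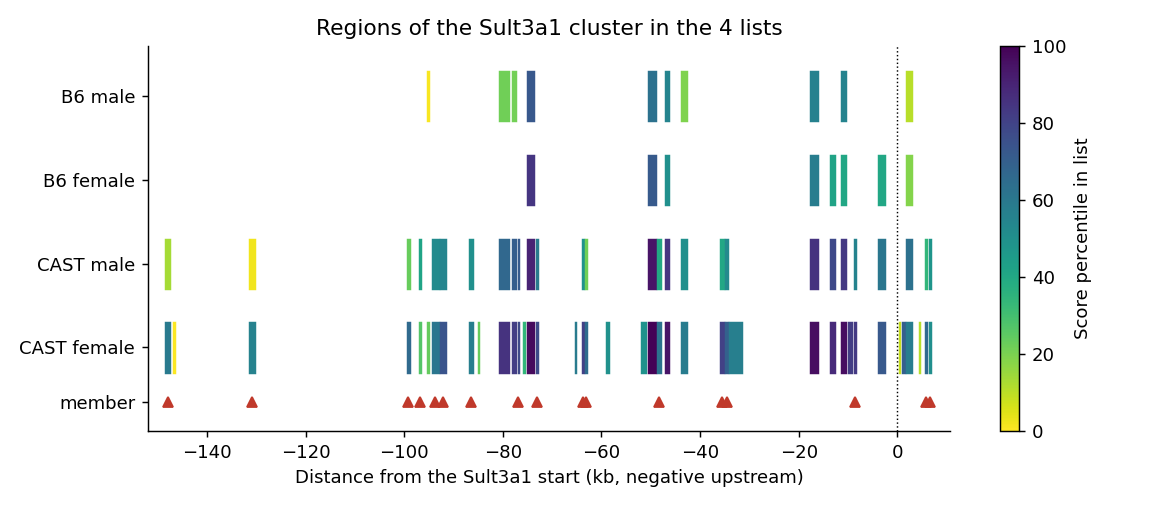
Union regions of the Sult3a1 cluster by distance from the Sult3a1 start (kb, negative upstream), 1 row per list, coloured by score percentile and drawn at the width of the merged region wherever that list had a peak, with the 17 members marked by triangles. The CAST female row is filled at all 40 regions, the CAST male row at 28, and the B6 rows at 10 and 8.

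A cluster of 10 members lay at the complement factor H-related gene Cfhr2, one of a family of plasma proteins made in liver that bind complement C3 (chr1:141865904-141966667, 101 kb). Its strongest member, 46.6 kb from the start at chr1:141962073-141963394, had folds of 4.04 in CAST males and 3.94 in CAST females and stood at percentiles 76.0 and 76.7. The weakest, at chr1:141966290-141966667, stood at 43.2 in males and 2.55 in females. The female percentile was higher in 8 of 10 and the female fold in 7 of 10. Here B6 was not empty, with 11 of the 26 regions in the span called in at least 1 B6 list and 4 called in all 4 lists.

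The cluster at D7Ertd443e also held 10 members (chr7:141548370-141655991, 108 kb) but differed in its surroundings and its sex pattern. B6 lists called 2 of its 17 regions, both in males, and no region was called in all 4 lists. The percentile was higher in the CAST male list in 9 of 10 members, with medians of 43.97 in males and 38.66 in females. The fold was higher in males in 8 of 10, while the median fold was 2.40 in males and 2.44 in females. The strongest, at chr7:141593221-141594145, had folds of 3.67 in CAST males and 3.34 in CAST females. Among these 10, the last 5 members followed each other within 5.71 kb with no other union region between them.

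Other large clusters lay near genes of signalling. The cluster over Gnaq, which encodes a G protein alpha subunit, and toward Gna14, a related subunit, held 11 members over 301 kb, among 62 regions of which 32 were called in a B6 list. Its folds ranged from 1.89 to 4.04 in CAST males. The cluster upstream of the start of Ppp6c, the catalytic subunit of protein phosphatase 6, held 10 members over 133 kb, with 1 of 19 regions called in a B6 list. The female percentile was higher in 4 of 11 and 4 of 10 members of these clusters, and the female fold in 4 of 11 and 6 of 10.

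**Figure D4:**
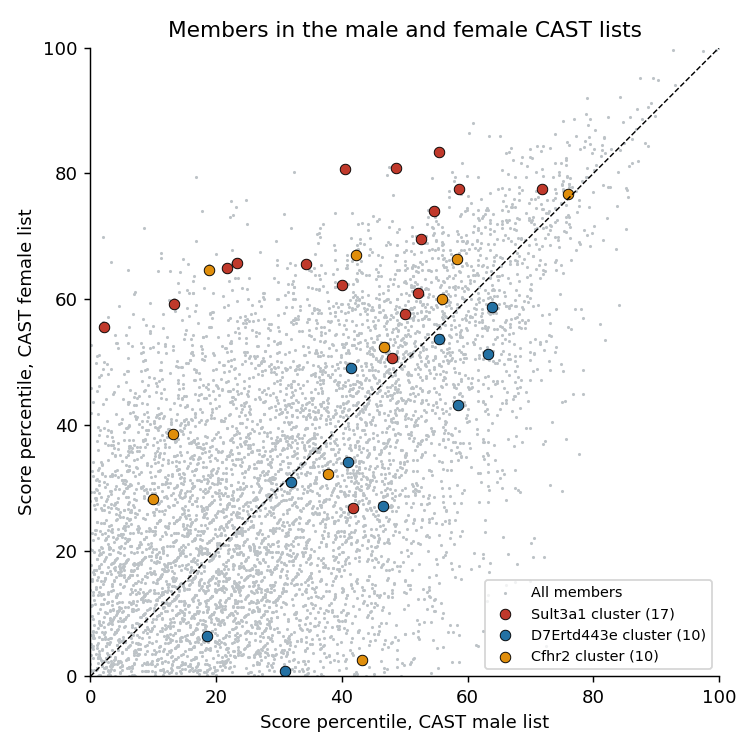
Score percentile of each of the 6686 members in the CAST male (x) and CAST female (y) list, with the clusters at Sult3a1, D7Ertd443e and Cfhr2 coloured and equality dashed. In the Sult3a1 cluster 16 of 17 points lie above the line, in the D7Ertd443e cluster 9 of 10 lie below it.

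Unbroken runs, in which consecutive union regions were all members, were short. Of the members, 5203 stood alone between other regions and 1483 (22.2%) were in runs of 2 or more, of which 98 held 3 or more. The longest run held 6 members within 32.96 kb (chr19:7659692-7692649) at Lgals12, a galectin, and Hrasls5, a phospholipid-modifying enzyme, and one of them covered the Hrasls5 start, with folds of 2.29 in CAST males and 2.13 in CAST females. Besides the run near D7Ertd443e, runs of 5 lay 257 to 267 kb from the start of Chd6, a chromatin remodeller, and across 787 kb at Opcml, a neural adhesion protein. In the run near Chd6, the last member stood at percentile 80.2 in CAST females and 32.4 in CAST males, with folds of 5.33 and 2.56. In the run at Opcml the nearest B6 peak was between 271 and 609 kb from each member.

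By nearest coding gene, members fell to 4140 genes, 19.5% of the 21275 autosomal coding genes. Of these, 2733 were nearest to 1 member, 822 to 2 and 585 (2.75% of all) to 3 or more. Cfhr2 and Zbtb20, a transcriptional repressor of liver development, were each nearest to 12. Serp2, a protein of the endoplasmic reticulum membrane, followed with 11. Chd6, Cyp7b1, D7Ertd443e, Nedd4l, Pawr and Ppp6c tied at 10. Cyp7b1 is the oxysterol 7-alpha-hydroxylase of the alternative bile acid pathway, Nedd4l a ubiquitin ligase, and Pawr a regulator of cell death.

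These genes differed in how much acetylated chromatin the strains shared. Zbtb20 was the nearest gene to 51 regions called in all 4 lists, Nedd4l to 23, Cyp7b1 and Pawr to 18 each and Serp2 to 17. For Cfhr2 the count was 6, for D7Ertd443e 2 and, with 9 members, for Gm4794 it was 1. At Zbtb20 all 12 members lay between 13.1 and 69.2 kb from a start, with median folds of 2.04 in CAST males and 2.196 in CAST females. At Cyp7b1, 2 of the 10 members were at the promoter, and median folds were 1.94 and 1.83.

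**Figure D5:**
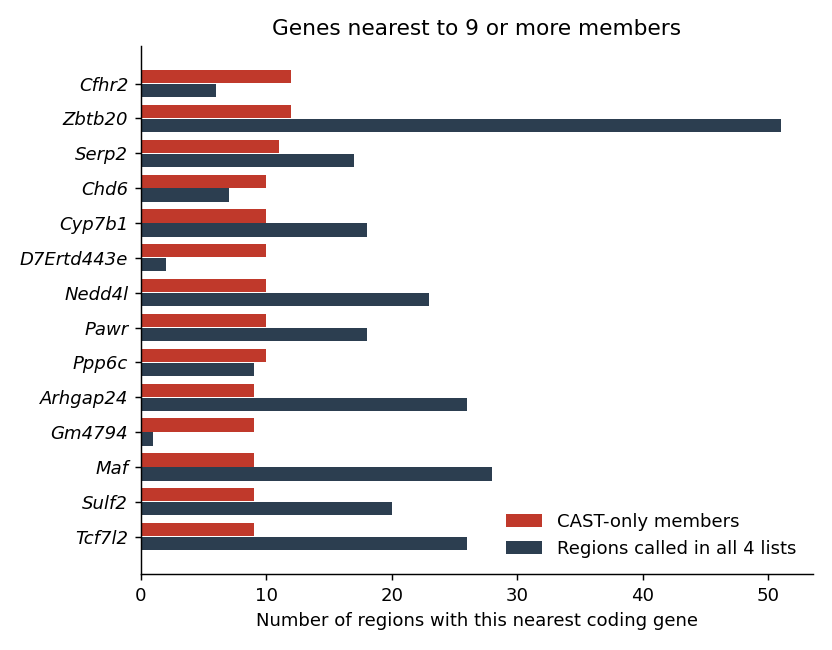
Number of members (red) and of regions called in all 4 lists (dark) with each gene as the nearest coding gene, for genes nearest to 9 or more members. Members outnumber the regions called in all 4 lists at Cfhr2, Chd6, D7Ertd443e, Ppp6c and Gm4794, while Zbtb20 has 51 such regions beside its 12 members.

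Among liver enzyme families, 15 of 98 cytochrome P450 genes (15.3%) were the nearest gene to a member, against 19.5% of all coding genes. Highest ranked were members 202 kb from Cyp26b1, which degrades retinoic acid, 25.4 kb from Cyp2a12 and 47.3 kb from Cyp3a16. The one near Cyp3a16, a steroid hydroxylase, stood at percentile 88.0 in CAST females and 60.8 in CAST males, with folds of 6.96 and 3.62. Of the conjugating enzyme genes, 10 of 57 (17.5%) had a member, led by Gsta2, a glutathione transferase, with a member 681 bp from its start and folds of 4.24 in CAST males and 4.09 in CAST females, then Sult3a1 and Gsta4. Of the acyl-CoA thioesterase genes, 3 of 12 had one, Acot11, Acot12 and Acot13, with folds of 1.81 to 2.15 in CAST males. Solute carrier genes had one in 96 of 356 (26.97%), with Slco2a1, Slc25a1 and Slc26a7 ranked highest.

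Among genes of plasma proteins, protease inhibitors and pheromone carriers, the shares ran from 14.3% to 27.5%, and the 95% Wilson interval of each list included the 19.5% of all coding genes. Complement and coagulation genes had a member in 11 of 40 (27.5%, 16.1 to 42.8), namely Cfhr2, F5, Kng2 and 8 others. F5, coagulation factor V, had a member 1.88 kb from its start with folds of 1.83 in CAST males and 2.15 in CAST females. Serine protease inhibitor genes had one in 14 of 59 (23.7%, 14.7 to 36.0), led by Serpinb6e, Serpina1b and Serpine2, and apolipoprotein genes in 2 of 14, Apob and Apoh. Apob, the structural protein of liver lipoproteins, had a member 7.02 kb from its start with folds of 2.95 and 2.498, and Apoh had 4 members. Major urinary protein genes, pheromone carriers made in liver, had one in 3 of 21: Mup16, Mup3 and Mup20. The member nearest to Mup20 stood at percentile 75.1 in CAST males and 29.6 in CAST females, with folds of 3.04 and 1.92.

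Of 25 hepatocyte transcription factor genes, 15 (60%, 95% Wilson interval 40.7 to 76.6) were nearest to a member, against 19.5% of all coding genes, with those of Nr5a2 and Onecut1 among the highest ranked. The member 539 bp from the Nr5a2 start had folds of 1.77 (males) and 1.87 (females), with 100% of windows unique. Only 1 of these genes had a promoter member, and 24 of the 25 had a promoter called in all 4 lists. The 19.5% covers all coding genes, with or without such a promoter. How many of the 25 genes are nearest to a shared or a B6-only region was not counted, so the share may not be particular to members. Of a list of example genes, 6 of 16 had a member, led by Gm4794, Sult3a1 and Ptger3, a prostaglandin receptor. These examples were picked for the paper on these same livers, so this is not independent evidence.

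Of the immune and sensory gene families, the chemosensory receptors lay farthest from the 19.5% of all coding genes. Interferon-induced GTPase and Ifi genes had a member in 11 of 38 (28.9%, 95% Wilson interval 17 to 44.8), led by Ifit2, Ifi47 and Ifitm2, natural killer receptor genes in 4 of 28 (14.3%, 5.70 to 31.5), among them Klrb1 with 6 members, Klrb1a and Klrb1b, and MHC genes in 3 of 35 (8.57%, 2.96 to 22.4): H2-T3, H2-D1 and H2-Q2. All 3 of these intervals include 19.5%. Zinc finger protein genes had one in 63 of 386 (16.3%, 12.97 to 20.3), with Zfp626, Zfp708 and Zfp157 ranked highest. Chemosensory receptor genes, known for their use in sensory neurons, had one in 15 of 1450 (1.03%, 0.628 to 1.70), and 6 had a promoter called in all 4 lists. Those with a member were led by Olfr161, Olfr443-ps1 and Olfr514.

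Markers of liver cell types served as a check of the tissue. Of the hepatocyte markers, 9 of 10 had a promoter called in all 4 lists, as did 9 of 10 liver endothelial markers, 6 of 10 cholangiocyte markers, 3 of 10 lymphocyte markers, 1 of 9 Kupffer cell and macrophage markers and 1 of 10 stellate cell and fibroblast markers. Members were nearest to 5 of 10 hepatocyte markers (95% Wilson interval 23.7 to 76.3%), against 19.5% of all coding genes, with Tat, Apob and Cps1 ranked highest. The member near Tat (chr8:112535252-112536397), 20.8 kb from the start, had folds of 5.51 in CAST males and 5.28 in CAST females and stood at percentiles 87.7 and 88.7, with a B6 peak 363 bp away. Members were nearest to 5 of 10 endothelial markers (5 members at Kdr and 3 each at Stab2 and Ptprb), to 3 of 10 cholangiocyte markers with Krt19 and Sox9 ranked highest, to 2 of 9 macrophage markers (Csf1r and Clec4f), to 1 of 10 stellate markers (Hand2) and to 0 of 10 lymphocyte markers. With about 10 genes a list, the intervals were wide, 10.8 to 60.3% for cholangiocyte and 0 to 27.8% for lymphocyte markers, and those of the last 4 cell types include 19.5%. Here too the 19.5% covers all coding genes, and shared or B6-only regions were not counted in the same way. In bulk liver, a different share of a cell type and a different acetylation per cell cannot be told apart.

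Within members, the sexes of CAST stood in a different balance from the rest of the CAST regions. The CAST male percentile was the higher in 3266 of 6686 members, 48.8% (47.7 to 50.05), against 61.4% (61.0 to 61.8) of the CAST regions also called in B6. The CAST male fold was the higher in 47.6% and 64.3%. Below percentile 20 the shares were 51.3% (49.5 to 53.0) in members and 63.1% (61.9 to 64.2) in shared regions. Between 60 and 80 they were 36.4% (31.4 to 41.8) and 61.3% (60.4 to 62.1), so the stronger members more often ranked higher in the CAST female list. The median male minus female percentile was -0.47 in members and 1.58 in shared regions. A lead of more than 30 percentile points was seen for males in 321 members and for females in 363, and for males in 2081 and for females in 680 of the shared regions. When all lists were shortened to the number of peaks of the shortest, the CAST male percentile was the higher in 52.6% of members. The shared regions and the bands of score were not recounted with shortened lists. Each sex is 1 pooled list, so the spread between livers behind these shares is not known.

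Some members differed much more between the sexes. The member at a start of Ptger3 (chr3:157229716-157231060) stood at percentile 71.3 in CAST females and 8.51 in CAST males, with folds of 4.06 and 2.08. A pair near Bmper, a regulator of BMP signalling, stood at 79.5 and 66.6 in females and at 16.8 and 11.3 in males. In the other direction, the member at a start of Clstn1 (chr4:148960158-148961425) stood at 62.5 in males and 7.25 in females, with folds of 3.73 and 2.08. These members were singled out after their values were seen.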

How the data were processed

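H3K27ac ChIP-seq of mouse liver was used as 4 merged peak lists. Per the study's methods, the authors mapped reads with Bowtie2, CAST reads to a CAST genome whose positions were converted to mm9, pooled the livers of a group, called peaks with MACS2 against input and removed blacklisted regions and peaks made of duplicates. The deposited values are the MACS2 score, the fold enrichment over input and the −log10 q-value of each peak (the −log10 p was not used), and the summit's position (other columns were not needed). The lowest deposited −log10 q was 1.3. The deposited lists hold no counts, and the sequencing depth the study states was not used here, so the precision of single peak values is not given. Differences between the lists in depth, mapping genome and filtering were not corrected.

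Peaks were merged, classed and annotated with Python 3.11.15, pandas 2.3.3 and NumPy 2.4.6, using GENCODE vM1 on NCBIM37, and functions were tested on simulated data. A B6 number gap is a stretch between neighbouring peaks whose numbers are not consecutive. Since numbers run on from one chromosome to the next, stretches before the first and after the last peak of a chromosome were judged by the next peak in number order. Shares carry 95% Wilson intervals. Window uniqueness was counted exactly for 50-base windows on both strands. Groups came from sample titles.

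Named were the 10 highest-ranked promoter members and the 10 highest-ranked others with a fold of at least 1.5 in both CAST lists, the 5 clusters with most members (6 with ties), the 3 longest runs (4 with ties), the 5 genes nearest to most members (9 with ties) and up to 3 genes of each of 21 gene lists. Windows for sequences were kept only if free of annotated UTRs. The members and lists were chosen with earlier results of these data known. Per-liver values were not analysed here, and some items the rule names are not reported here.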

Additional observations from a re-analysis of the deposited data

Results flagged for a closer look

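The X chromosome was not part of the union regions. By the same rule it held 77 CAST-only regions outside number gaps, with 11 of them above the median peak of both CAST lists. They were 8.02% of the 960 X regions called in both CAST lists, against 10.9% on the autosomes. The mitochondrial genome, also outside the comparison, carried 5 peaks in B6 males, 5 in B6 females and 0 in either CAST list. How the mapping to different genomes bears on either count was not tested.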

How the results depend on the processing

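No paired analysis was possible because each list pools its livers, and for the same reason no liver could be left out. Across the alternatives the number of members stayed between 4815 and 7265, except when both CAST peaks had to be in the upper part of their list by score, which left 852. The share of both-sex CAST regions that are members was 11.8% with no gap rule, 10.3% with a −log10 q of at least 5 in all lists, 1.39% in the upper part by score, 9.19% with lists shortened to the shortest, 9.88% when peaks up to 500 bp apart were merged and 7.84% when the nearest B6 peak had to be at least 1 kb away. The promoter share was 13.3% with no gap rule, 9.86% in the upper part by score, 7.19% with B6 peaks at least 1 kb away, 4.29% with a limit of 1 kb and 14.2% with starts of all transcript types. With those last 2 settings it was 4.58% and 14.3% in B6-only regions and 27.7% and 37.2% in regions called in all 4 lists. The share in clusters was 30.5% with no gap rule, 22.4% with the stricter q, 5.87% in the upper part by score, 22.6% with shortened lists, 18.4% with merging, 20.3% with B6 peaks at least 1 kb away, and 14.9% and 46.4% with cluster distances of 25 and 100 kb. The share ranked higher in CAST males was 45.6% with the stricter q, 40.7% in the upper part by score and 52.6% with shortened lists, so whether males or females led in most members depended on list length. In the upper part by score the span of the Sult3a1 cluster held 7 members in place of 17, the spans of the D7Ertd443e and Cfhr2 clusters 3 each in place of 10, that of the Ppp6c cluster 2 in place of 10 and that of the Gnaq cluster 1 in place of 11. With merging the Sult3a1 span held 10, the Gnaq span 7 and the D7Ertd443e and Cfhr2 spans 6 each. With the stricter q the Gnaq and Ppp6c spans held 5 each and the Sult3a1 span 18, and the Gnaq span held 7 both with shortened lists and with B6 peaks at least 1 kb away. These are counts, which can include regions that are members under that setting alone. Chosen after seeing the data, leaving out regions under 90% unique removed 6 of the 10 named promoter members and 6 of the 10 named distal members, and not treating chromosome ends as gaps gave 6768 members. Where a value moved, the cause was not tested. Each list is 1 pool whose depth was not used here, a weak peak missed in B6 counts the same as an absent one, and percentiles compare positions within lists, not amounts of acetylation.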
